A study of Homo sapiens with 8 samples.

Results

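The genes described here are the protein-coding genes of human chromosome 19 whose symbol begins with ZNF and a digit. In GENCODE release 44 (hg38) these were 249 of the 1476 protein-coding genes of the chromosome, or 16.9%, and 249 of 20033 protein-coding genes in all. The data were H3K27ac ChIP-seq peak lists of pancreatic progenitors that had been made from the established embryonic stem cell line MEL1, which the methods give as INS GFP/W, a line with a GFP reporter at the insulin gene. All cells were kept in basal medium with EGF at 50 ng/ml, bFGF at 10 ng/ml and the TGFβ receptor inhibitor 616452 at 10 μM, and received either DMSO or 1 μM I-BET151, an inhibitor of the BET bromodomain proteins that read acetylated histones, for 7 days. Each treatment had 2 H3K27ac libraries. A gene was counted as having a promoter peak in a library when a peak of that library overlapped the 1 kb on either side of any annotated transcription start.

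C2H2 zinc finger proteins bind DNA through tandem fingers, each of which holds a zinc ion between a pair of cysteines and a pair of histidines. Most of those on chromosome 19 also carry a KRAB domain, which recruits the corepressor TRIM28 and, through it, the histone methyltransferase SETDB1 and HP1 proteins. Many silence transposable elements, and the family grew by tandem duplication, which left the genes in clusters. H3K27 acetylation is a mark of active promoters and enhancers, so a peak at a start marks an acetylated promoter and its absence only means that no peak was called there. The main protein of each gene, translated from the annotation, held a median of 12 fingers, with a range of 0 to 36, and 210 of the 249 genes matched a pattern of the KRAB A box. The 2 genes without a finger match were read-through loci, of which the set held 3. A start of another protein-coding gene lay within 1 kb for 62 of the genes, and for 30 of them that neighbour was itself one of the 249.

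The promoters of 4 of the genes are shown as examples. Each line gives the 150 bases before the RefSeq start (GRCh38.p14, read along the gene's strand), with CpG dinucleotides in capitals. ZNF561 (chr19:9621233-9621382, minus strand) had a peak in every library, ZNF283 (chr19:43827171-43827320, plus strand) had one in the DMSO libraries only, and ZNF91 (chr19:23395472-23395621, minus strand) and ZNF93 (chr19:19900796-19900945, plus strand) had none.
ZNF561: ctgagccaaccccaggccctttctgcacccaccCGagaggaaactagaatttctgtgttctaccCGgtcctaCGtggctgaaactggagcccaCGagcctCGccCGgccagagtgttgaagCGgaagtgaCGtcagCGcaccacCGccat
ZNF283: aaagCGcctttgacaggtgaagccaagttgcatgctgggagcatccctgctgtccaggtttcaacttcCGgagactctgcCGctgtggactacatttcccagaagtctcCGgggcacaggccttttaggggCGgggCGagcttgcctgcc
ZNF91: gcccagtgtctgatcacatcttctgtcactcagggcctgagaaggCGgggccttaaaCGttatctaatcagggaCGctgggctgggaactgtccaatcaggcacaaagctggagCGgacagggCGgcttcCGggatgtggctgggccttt
ZNF93: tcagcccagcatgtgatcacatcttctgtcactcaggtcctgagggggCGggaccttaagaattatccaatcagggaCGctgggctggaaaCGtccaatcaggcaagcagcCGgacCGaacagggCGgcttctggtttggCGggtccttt
The stretch held 10 CpGs in ZNF561, 6 in ZNF283, 6 in ZNF91 and 7 in ZNF93, and its GC content lay between 57.3% (ZNF93) and 60.7% (ZNF561). The uncalled promoters held no fewer CpGs in these windows than that of ZNF283. Over 1 kb around the main start the order was reversed, with 48 CpGs in ZNF283, 39 in ZNF91 and 41 in ZNF93. The summit of the ZNF561 peak lay between 212 and 230 bases before the start in the 4 libraries, and that of ZNF283 lay 273 and 240 bases after it in the DMSO libraries. The ZNF283 peak did not cover the start, so it lay outside the bases shown.

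The lists held 13606 and 14248 peaks with DMSO and 12887 and 12312 with I-BET151. They rested on between 7.76 M and 9.84 M ChIP reads a library, numbers worked out from the deposited fold, p-values and shortest peak. Of 10 genes that mark pancreatic progenitors, 9 had a promoter peak in every library, PTF1A being the exception, and none of 5 endocrine and none of 4 mesenchyme or blood markers had one in any library. Of 4 pluripotency markers 1 was called, as were 2 of 5 liver and intestine markers in every library. Nothing says whether the libraries of a group came from separate cultures, so tests between them measure the spread between these libraries only, and with 2 against 2 the exact permutation test cannot give a two-sided p below 0.33.

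Next, the share of genes with a promoter peak was compared between the zinc finger genes and the other genes of the chromosome. In each of the 4 libraries the share was lower for the zinc finger genes, a description with no test across genes. In DMSO replicates 1 and 2, 42.2% and 41.0% of the 249 genes had a promoter peak, and in I-BET151 replicates 1 and 2, 36.5% and 35.7% did. The 95% Wilson intervals, which cover counting error only, ran from 36.2% to 48.4% in DMSO replicate 1 and from 30.0% to 41.9% in I-BET151 replicate 2. The other 1227 genes of the chromosome had shares of 50.2%, 51.7%, 45.4% and 44.7% in the same order, with intervals from 47.4% to 53.0% in DMSO replicate 1 and from 42.0% to 47.5% in I-BET151 replicate 2. The intervals of the sets overlapped in DMSO replicate 1 and in I-BET151 replicate 1, but not in DMSO replicate 2 or I-BET151 replicate 2. They take genes as independent, although 62 of the 249 share a start region with another gene, so their overlap is no test. With I-BET151 the margins were very small. The zinc finger genes lay 8.04, 10.7, 8.85 and 9.0 percentage points below the other chr19 genes in the 4 libraries. The ZNF genes of other chromosomes, 266 in number, stood higher than either set, at 68.8%, 68.8%, 69.5% and 69.9%.

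**Figure D1:**
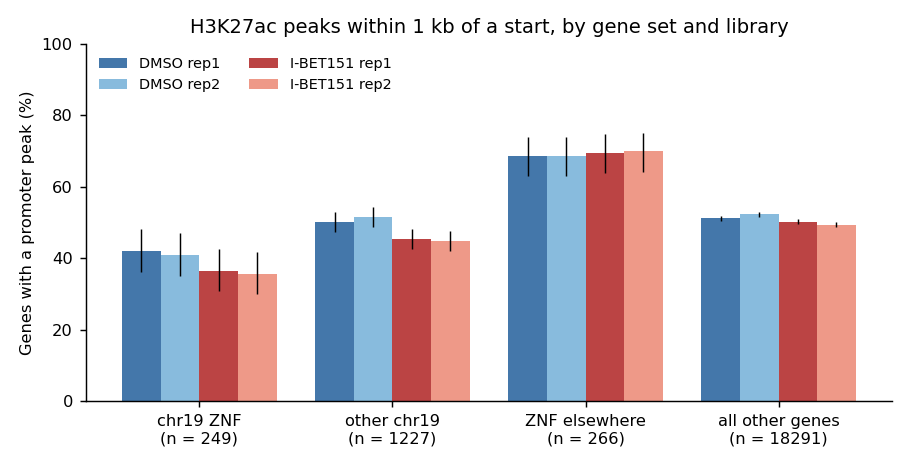
Share of genes with an H3K27ac peak within 1 kb of a transcription start (y axis, percent) in 4 gene sets (x axis), with one bar per library and 95% Wilson intervals for counting error. The chr19 ZNF genes sit between 35.7% and 42.2%, below the other chr19 genes, and the ZNF genes elsewhere sit between 68.8% and 69.9%.

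Less of their promoter length was covered as well. The mean covered length within 1 kb of the starts, over called and uncalled genes, was 285, 266, 240 and 218 bp per zinc finger gene in the 4 libraries, against 465, 462, 385 and 364 bp for the other genes of the chromosome. The median of the widest peak at called genes was 507, 487, 472 and 427 bp for the zinc finger genes. Its range over the 4 libraries was 576 to 690.5 bp for the other chr19 genes. The fold enrichment over input differed little: the median of the highest fold at called genes was 6.27, 6.88, 6.65 and 6.49 for the zinc finger genes and 6.30, 6.91, 6.68 and 6.75 for the other chr19 genes.

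Of the 249 genes, 138 had a peak in none of the 4 libraries, 55.4%, where 46.5% of the other chr19 genes had none. A further 83, or 33.3%, had one in all 4 libraries, against 42.1% of the other chr19 genes. The remaining 28 were called in 1 to 3 libraries, and 8 of these had a peak with DMSO in both replicates and none with I-BET151 (lost genes). The opposite pattern, a peak in every I-BET151 library and none with DMSO (gained genes), was found at 0 zinc finger genes and at 0.163% of the other chr19 genes. The libraries of a group gave the same call at 94.8% of the genes with DMSO and at 95.98% with I-BET151, and libraries of different groups did so at 91.6% to 93.6%.

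The calls were then followed along the chromosome. Genes less than 1 Mb apart were joined, which gave 9 clusters of 5 or more genes holding 238 of the 249, each named here by one of its genes. The clusters differed far more from each other than the treatments did. In the ZNF91 cluster, 37 genes over 4.46 Mb on the short arm (19.7 to 24.1 Mb), 1, 2, 1 and 2 genes had a promoter peak in the 4 libraries. In the ZNF350 cluster, 40 genes over 2.01 Mb (51.6 to 53.6 Mb), 5, 3, 3 and 2 genes had one. These low clusters hold 77 genes, of which 70 had a peak in no library.

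The exceptions in the low clusters were few. ZNF101 was called in all 4 libraries and ZNF14 in the second library of each group, both in the ZNF91 cluster. In the ZNF350 cluster, ZNF614 and ZNF766 were called in all 4 libraries, ZNF701 in both DMSO libraries, ZNF615 in the first library of each group and ZNF320 in DMSO replicate 1. ZNF766 was among the 5 genes of the whole set with the highest mean fold, and its peak covered 511, 578, 461 and 442 bp.

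Elsewhere on the chromosome acetylated promoters were more common than in the low clusters, to differing degrees. In the ZNF274 cluster near the long-arm end, 59 genes over 3.00 Mb (55.5 to 58.5 Mb), 38, 37, 30 and 33 genes had a peak. The ZNF382 cluster (26 genes) had 15, 16, 13 and 12, the ZNF224 cluster (24 genes) 10, 10, 8 and 7, and the ZNF653 cluster (26 genes) 9, 9, 9 and 8. The shares in the ZNF224 and ZNF653 clusters lay below those of the other chr19 genes in every library. The ZNF557 cluster (16 genes) had 10, 9, 11 and 9, and the small ZNF302 and ZNF554 clusters (5 genes each) had 5, 4, 4 and 4 and 3 in each library. Of the 11 genes outside every cluster, 9 had a peak in all 4 libraries.

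**Figure D2:**
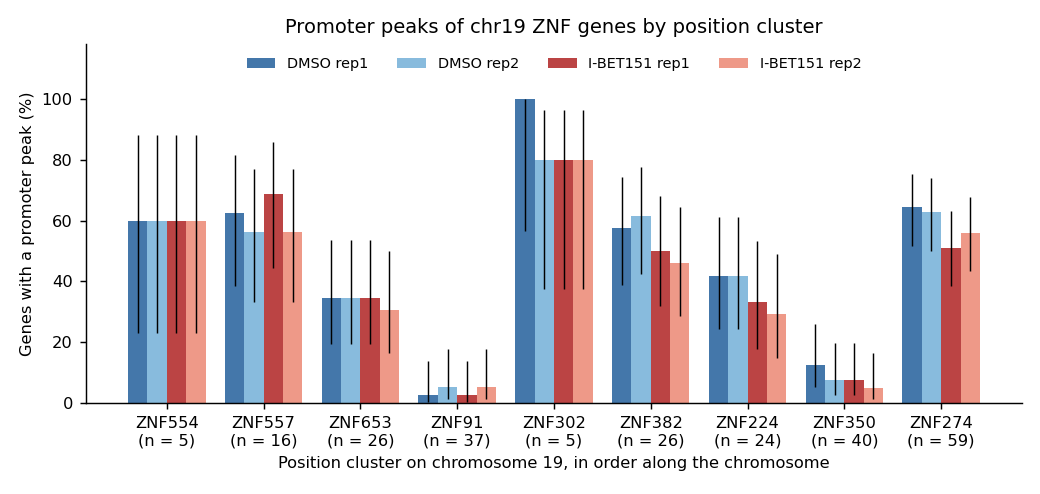
Share of chr19 ZNF genes with a promoter peak (y axis, percent) in the 9 position clusters (x axis, in order along the chromosome), one bar per library, with 95% Wilson intervals for counting error. The ZNF91 and ZNF350 clusters stay at or below 12.5% in every library, and the other clusters lie between 29.2% and 100%.

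The shares were also counted without the 77 genes of those low clusters. Since the clusters were left out because their shares were the lowest, a rise was fixed by that choice, and the values are a description. The remaining 172 genes had a promoter peak in 57.6%, 56.4%, 50.6% and 49.4%, which was 7.35, 4.72, 5.19 and 4.68 points above the other chr19 genes. Their covered length stayed lower, by 66.6, 87.7, 46.6 and 56.3 bp. The other genes inside the clusters were called less often than those outside, but did not follow the zinc finger genes in each cluster. The 175 other protein-coding genes inside the 9 clusters had shares of 35.4%, 38.3%, 29.1% and 33.7%, against 52.7%, 53.9%, 48.1% and 46.6% for the 1052 outside. Among the 175, none of 3 inside the ZNF91 cluster and 2 of 14 inside the ZNF350 cluster had a peak in each library. In the ZNF274 cluster 32%, 32%, 20% and 26% of 50 such genes had a peak. The zinc finger genes there had 64.4%, 62.7%, 50.8% and 55.9%. In the ZNF224 cluster the order was the other way, with 48.4%, 45.2%, 38.7% and 41.9% of 31 such genes. The zinc finger genes there had 41.7%, 41.7%, 33.3% and 29.2%. The whole 4.46 Mb of the ZNF91 cluster held 2, 3, 2 and 3 peaks of any kind.

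Nearly all peaks at the zinc finger genes lay at starts. Over the 7.55 Mb of their gene bodies, 0, 1, 1 and 1 peaks lay more than 1 kb from any protein-coding start of the chromosome, each time in ZNF787. The 26.9 Mb of the other genes' bodies held 141, 157, 108 and 94 such peaks, or 5.25, 5.85, 4.02 and 3.50 per Mb.

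Next, sequence features that the choice of genes had not used were compared between called and uncalled promoters, as descriptions, since neighbouring duplicated genes share sequence. CpG content was measured over 1 kb around the main start as the observed over the expected number of CpGs, where 0.6 is a usual minimum for a CpG island. The median ratio was 0.74 for the 83 genes called in all 4 libraries and 0.67 for the 138 called in none. In the other chr19 genes the same medians were 0.79 and 0.37. A ratio of 0.6 was reached by 95.2% of the called and 67.4% of the uncalled zinc finger promoters, and by 88.6% of the called and 24.9% of the uncalled promoters of other chr19 genes. Below 0.6, 13.5%, 11.5%, 9.62% and 9.62% of 52 zinc finger genes had a peak.

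Among promoters with a ratio of 0.6 or more, the distance between the sets was wider than over all genes. A peak was called at 49.7%, 48.7%, 43.7% and 42.6% of 197 such zinc finger genes and at 75.0%, 77.0%, 69.8% and 70.0% of 696 such other chr19 genes. This difference of 25.3, 28.3, 26.2 and 27.3 points fell to 14.1, 16.7, 15.5 and 17.0 without the ZNF91 and ZNF350 clusters. The 46 CpG-rich promoters inside those clusters were called in 13.04%, 10.9%, 8.70% and 8.70%.

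The calls also differed with the KRAB domain. Of the 210 genes with the KRAB pattern, 35.7%, 33.8%, 29.05% and 28.6% had a promoter peak, and of the 39 genes without it, 76.9%, 79.5%, 76.9% and 74.4% did. The Wilson intervals of the 2 sets did not overlap in any library. They take genes as independent, although neighbouring genes can share a peak, and the pattern was widened after the first counts were seen. Among promoters with a CpG ratio of 0.6 or more, the shares were 42.1%, 40.2%, 34.8% and 34.1% for 164 genes with the pattern and 87.9%, 90.9%, 87.9% and 84.8% for 33 without it. Outside the low clusters the shares were 50.4%, 48.2%, 41.6% and 40.9% for 137 genes with the pattern and 85.7%, 88.6%, 85.7% and 82.9% for 35 without. The ZNF genes of other chromosomes showed 59.0%, 58.1%, 60.7% and 60.7% with the pattern (117 genes) and 76.5%, 77.2%, 76.5% and 77.2% without it (149 genes). Genes called in none had a median of 13 fingers and those called in all 4 a median of 11.

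**Figure D3:**
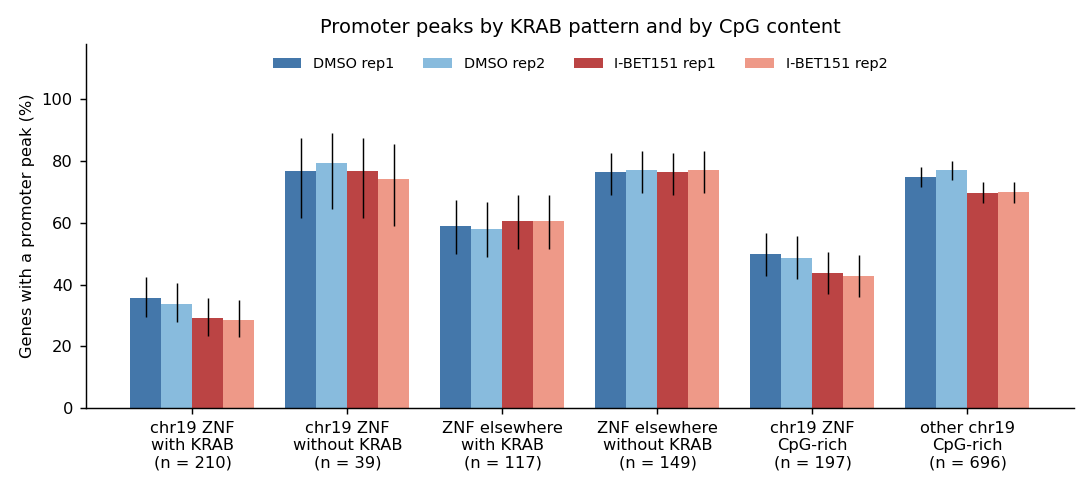
Share of genes with a promoter peak (y axis, percent) by KRAB pattern and among genes with a CpG ratio of 0.6 or more (x axis), one bar per library, with 95% Wilson intervals for counting error. The chr19 ZNF genes with the KRAB pattern lie between 28.6% and 35.7% and those without it between 74.4% and 79.5%.

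Promoter motifs were counted within 250 bases of the main start on both strands. CCAAT, the NFY motif, lay in 61.4% of the 249 promoters and in 43.5% of all 20033. CCGGAAG, an ETS motif, lay in 50.2% against 16.8%, and GGGCGG, the GC box bound by SP factors, which itself holds a CpG, in 79.9% against 69.5%. CACGTG, the E-box, was rarer than over all promoters, at 5.22% against 10.99%. Within the zinc finger genes CCAAT and CCGGAAG lay in 68.8% and 56.5% of the promoters called in none and in 51.8% and 38.6% of those called in all 4, whereas GGGCGG lay in 76.8% and 85.5%. Of the other motifs, TGCGCATGC (NRF1) lay in 4.42% of the 249 against 2.15% of all, AAGATGGC (YY1) in 6.83% against 5.30%, TGACGTCA (CRE) in 4.02% against 2.84%, TCTCGCGA in 1.20% against 1.89%, and TGACTCA (AP-1, in either spelling of its middle base) in 4.02% against 4.84%. The ETS motif went the other way in the other chr19 genes, where 7.89% of uncalled and 27.1% of called promoters held it. A match says only that the letters are in the window.

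Reads that match several places can be lost where duplicated genes share sequence. Of all 96-base windows within 1 kb of the starts, a mean of 1.12% for the genes called in none and 0.41% for those called in all 4 occurred more than once in hg38. The median was 0 in both, and 5 of the 249 genes had over 10%. In the ZNF91 cluster the mean was 0.52% and in the ZNF350 cluster 0.83%, against 1.79% in the ZNF274 cluster, where most genes were called in DMSO. The part of repeated sequence in the calls was not tested.

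The effect of I-BET151 was then described. Fewer zinc finger genes had a promoter peak with I-BET151, 36.1% ± 0.568 (SD, n = 2) against 41.6% ± 0.852 (SD, n = 2) with DMSO, and the groups did not overlap (exact permutation test, two-sided, p = 0.33, the smallest this design allows). The other chr19 genes fell by slightly more in percentage points, from 50.9% ± 1.04 to 45.1% ± 0.461 (SD, n = 2 each). Relative to the DMSO means the order was reversed, with changes of -13.0% for the zinc finger genes and -11.5% for the other chr19 genes. The change of the zinc finger genes minus theirs was 0.446 points (exact permutation test, two-sided, p = 1). With 2 libraries a group this test cannot show whether the sets changed alike. Mean covered length fell by 46.3 bp per zinc finger gene and by 89.0 bp per other chr19 gene, and the difference between these changes, 42.6 bp, had p = 0.33 (exact permutation test, two-sided). The other chr19 genes started from a longer covered length, 464 bp against 275 bp with DMSO. Relative to these means the changes were -16.8% for the zinc finger genes and -19.2% for the other chr19 genes. The I-BET151 lists were also shorter. With lists of equal length, 12312 peaks each, the zinc finger shares were 38.2% and 36.1% with DMSO and 34.5% and 35.7% with I-BET151, a difference of -2.01 points. In the same lists the share of the other chr19 genes changed by -3.83 points.

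The fall was larger on chromosome 19 than elsewhere. All protein-coding genes of the chromosome changed by -5.79 points, the largest fall of 23 chromosomes, and it ranked first also with lists of equal length, at -3.52 points. The ZNF genes of other chromosomes rose by 0.94 points and all other genes fell by 1.91. The difference between the chr19 and the other ZNF genes changed by -6.36 points (exact permutation test, two-sided, p = 0.33, the smallest possible).

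Mean covered length per zinc finger gene was 275 bp ± 13.2 with DMSO and 229 bp ± 15.2 with I-BET151 (SD, n = 2 each; exact permutation test, two-sided, p = 0.33). It was lower in both I-BET151 libraries than in both DMSO libraries for 47 genes, 18.9%, where 25.8% of the other chr19 genes were lower. It was higher for 5 genes, 2.01%, where 3.02% of the other chr19 genes were higher. Genes called in none, 55.4% and 46.5% of the sets, are counted in these shares although they can be neither lower nor higher. Among the 83 genes called in all 4 libraries, 34 were lower, 4 were higher and 45 overlapped. This count was not made for the other chr19 genes called throughout, so it shows nothing particular to the zinc finger genes.

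**Figure D4:**
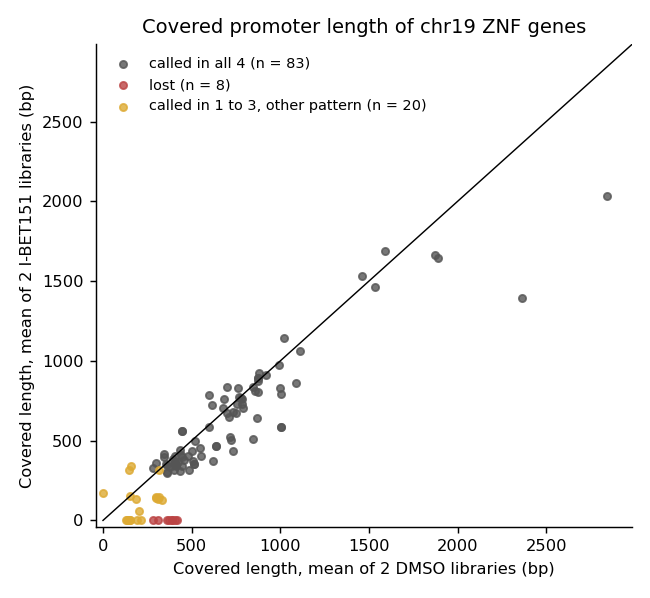
Covered length within 1 kb of the starts of the 111 chr19 ZNF genes called in at least 1 library, mean of 2 DMSO libraries (x axis, bp) against mean of 2 I-BET151 libraries (y axis, bp), with the line of equality. Each point is a gene; most genes called in all 4 libraries lie near or below the line and the 8 lost genes lie at 0 on the y axis.

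Falls in covered length were ranked among the genes called in all 4 libraries whose groups did not overlap. The 5 largest were at promoters shared with another gene. They are not 5 separate events, since ZNF580 with ZNF581 and ZNF569 with ZNF570 shared peaks. ZNF581 covered 2829 and 2859 bp with DMSO and 2280 and 1789 bp with I-BET151. Its neighbour ZNF580, which shares a start region with it and with CCDC106, covered 2321, 2407, 1627 and 1163 bp. ZNF569 and ZNF570, which share one promoter, covered 1176, 829, 598 and 569 bp. ZNF790, whose starts lie near those of ZNF345, covered 831, 866, 699 and 326 bp. All of these kept a peak in every library. At ZNF569 and ZNF570 the widest peak was 600, 513, 598 and 569 bp, so that more than one peak was covered with DMSO, and the highest fold was 4.63 and 3.92 with DMSO and 9.47 and 8.91 with I-BET151.

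The 4 genes that were called throughout and were wider in both I-BET151 libraries than in both DMSO libraries gained little. ZNF71 covered 331 and 355 bp with DMSO and 408 and 427 bp with I-BET151. ZNF227 covered 312, 286, 371 and 350 bp, ZNF30 covered 360, 326, 379 and 417 bp, and ZNF780B covered 292, 277, 341 and 312 bp in the same order. None shares a start with another gene.

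Summit height, as reads at the highest point scaled to library depth (RPM), could be worked out in all libraries for 80 of the 83 genes called throughout. Its median was 22.4 and 21.7 with DMSO and 19.9 and 19.3 with I-BET151, a difference of -2.43 (exact permutation test, two-sided, p = 0.33). The other chr19 genes called throughout stood higher, at 32.4, 30.0, 27.2 and 29.4. The median fold at the same zinc finger genes was 6.05, 7.15, 6.71 and 6.44 and overlapped between the groups.

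The highest mean fold among the genes called throughout was at ZNF561, with 22.4, 17.7, 28.5 and 10.3 in the 4 libraries. It was followed by ZNF566 with 11.7, 14.2, 9.65 and 18.7, ZNF780A with 7.81, 19.3, 13.9 and 12.5, ZNF121 with 10.2, 17.6, 14.4 and 8.04, and ZNF766 with 11.9, 15.3, 8.25 and 13.3. The groups overlapped at each of these 5 genes.

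The 8 lost genes were 3.21% of the 249, where 4.16% of the other chr19 genes were lost. Of the genes called in both DMSO libraries they were 8 of 97, or 8.25%, and 8.44% of the other chr19 genes were lost by that count. All 8 carried the KRAB pattern, as did 67 of the 97 and 84.3% of the 249. Lost genes were thus 11.9% of the 67 with the pattern and 0 of the 30 without it. All 8 had a CpG ratio of 0.6 or more, as did 79.1% of the 249 and 95.2% of those called throughout. A start was shared with another gene by 4 of the 8, by 36 of the 97 and by 24.9% of the 249. The ZNF genes elsewhere lost 2 of 180, or 1.11%.

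Of these, ZNF701 and ZNF283 had the highest fold in DMSO. The ZNF701 peak had a fold of 10.2 and 11.3, 51 and 54 reads at its summit and a covered length of 345 and 274 bp. That peak lay near a start other than the outermost, where ZNF701 was called in no library. ZNF283, which shares its start region with LYPD5, had a fold of 8.37 and 11.5, 85 and 114 reads and a covered length of 404 and 341 bp. Like the other lost genes, neither had a peak within 1 kb of its starts with I-BET151.

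ZNF599 had a fold of 3.87 and 5.20 and 119 and 138 reads at the summit, and ZNF211 had 2.89 and 5.53 with 126 and 147 reads. At its outermost start ZNF211 too was called in no library. ZNF470 had a fold of 3.01 and 3.66 and 89 and 123 reads. ZNF571 lies on the opposite strand inside ZNF540, and one peak lay within 1 kb of starts of both, which for ZNF540 did not include its outermost start. Both had a fold of 3.18 and 6.73 and 39 and 59 reads from that peak, so that they are 1 event. ZNF547, which shares its start region with TRAPPC2B, had a fold of 6.61 and 4.45 and 32 and 42 reads.

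The lost peaks were low. Their summits held 32 to 147 reads, where the median of the genes called throughout was 178 and 213.5 reads in the DMSO libraries. With lists of equal length 4 of the 8 remained lost, ZNF599, ZNF283, ZNF701 and ZNF211, and ZNF776 was called with I-BET151 only. Of the genes called in both DMSO libraries in those lists, 4 of 84, or 4.76%, of the zinc finger genes and 7.02% of the other chr19 genes were lost.

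**Figure D5:**
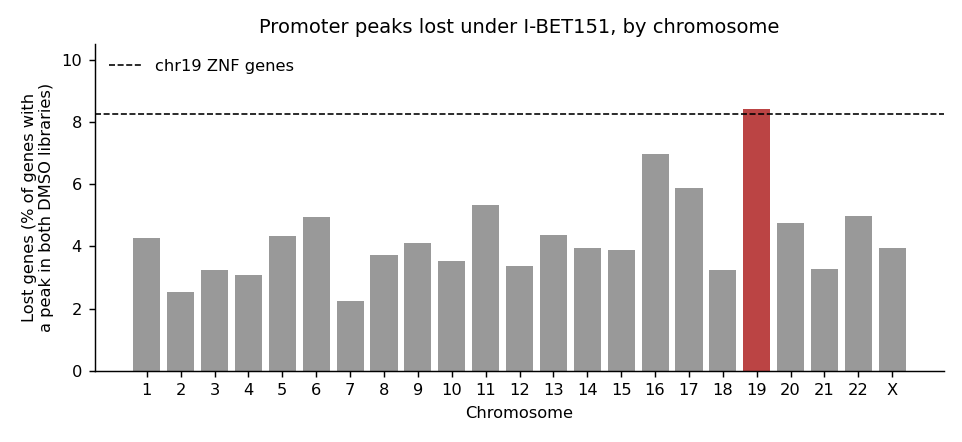
Lost genes as a share of genes with a peak in both DMSO libraries (y axis, percent), for each chromosome (x axis). Chromosome 19 stands highest at 8.42% and the dashed line marks its ZNF genes at 8.25%.

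The values of 11 genes with known roles, a list chosen by hand with earlier results known, are given here one by one. Of the 11, 1 had a peak, where 55.4% of all 249 genes had none, and ZNF91, ZNF93, ZNF331 and ZNF350 lie in the low clusters. ZNF91 and ZNF93, which repress SVA and LINE-1 retrotransposons, had none in any library, nor did ZNF417 and ZNF587, which repress endogenous retroviruses. Of the 96-base windows near the starts, 15.6% at ZNF417 and 5.58% at ZNF587 occurred more than once in hg38. The part of this in the missing calls was not tested. ZNF331, an imprinted gene, had none although its CpG ratio was 0.85. ZNF224, ZNF350 and ZNF382, all KRAB repressors, had none, and neither did ZNF536, a neuronal gene, or ZNF541, a germ cell gene. ZNF274, which brings SETDB1 to the coding ends of other zinc finger genes, was called throughout and covered 769, 814, 706 and 704 bp.

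Most partners of the KRAB domain had a peak at their start. Of 17 genes of the pathway, among them TRIM28, the HP1 genes CBX1, CBX3 and CBX5, the deacetylases HDAC1 and HDAC2 and the maintenance methyltransferase DNMT1, 16 had a promoter peak in all 4 libraries, where 46.2% of all protein-coding genes other than ZNF genes and off chromosome 19 had one. The exception was SETDB1, which had none in any library. None of the 17 was lost or gained with I-BET151. Covered length was lower in both I-BET151 libraries than in both DMSO libraries at TRIM28, CBX5, DAXX and MORC2 and higher at CHD4 and UHRF1, where 19.6% of those other genes were lower and 8.01% higher. TRIM28 covered 1092 and 1144 bp with DMSO and 882 and 750 bp with I-BET151, and UHRF1, which guides DNMT1 to newly copied DNA, covered 326, 648, 727 and 940 bp in the same order.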

How the data were processed

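H3K27ac ChIP-seq was analysed for 4 libraries of 8 (2 DMSO, 2 I-BET151); the 4 inputs were used only as far as they enter the deposited values. The authors aligned reads to hg38 with Bowtie2 2.2.5, removed duplicates and called peaks per library, without pooling, with MACS2 2.1.2. The deposited columns were the fold ratio over input at the summit, −log10 p-values and −log10 q-values, a score that was not used in the tests, and positions. Summit reads and library depth were worked out from the deposited fold (pseudocount of 1) and p-value, and 98.5% to 99.0% of summits gave a single solution within 0.02 of whole reads. For depth, the lowest input level found was taken as the genome-wide level, over 2.7e+09 bases. The shortest peak of each list (272, 247, 254 and 249 bp) was taken as the fragment length. The RPM values rest on these assumptions, which were not tested.

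Genes and starts were taken from GENCODE release 44, all transcripts counted, and any overlap with the window counted as a peak. KRAB and finger patterns were searched in the translated main transcript. The groups were compared by exact permutation over libraries in SciPy 1.17.1, with no test across genes. Scripts were tested on simulated data. Named genes were the lost and gained genes (up to 12 each), among genes called throughout whose groups did not overlap in covered length the 5 largest and 5 smallest differences, the 5 highest folds and genes of known role. The members and lists were chosen with earlier results of these data known, and the KRAB pattern was widened after the first counts were seen, since it had missed the ZNF224 cluster. RefSeq promoters matched 218 of 249 symbols. Alternatives were a window of 500 bp or 2 kb, a −log10 q of 5, lists of equal length, summits in the window, other starts, genes not sharing a start, the replicate block and leaving out each library.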

Additional observations from a re-analysis of the deposited data

Results flagged for a closer look

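A signal appeared in the inputs, which were not analysed as separate libraries. At the promoter summits of chr19 ZNF genes the median local input level was 33.7 times (DMSO replicate 1), 30.2 times (DMSO replicate 2), 28.0 times (I-BET151 replicate 1) and 32.5 times (I-BET151 replicate 2) that input's genome-wide level. The other chr19 genes stood at 49.0, 45.3, 42.0 and 44.7 times. Such levels exist only where a peak was called and lower the fold there; their part in the results was not tested.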

How the results depend on the processing

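The lower share of promoter peaks in the zinc finger genes, -9.15 points as the mean over libraries, became -7.12 among genes not sharing a start and 5.49 without the ZNF91 and ZNF350 clusters, a choice made after seeing the data. Leaving out each library gave -9.52 to -8.63. The change with I-BET151 kept its sign in every alternative for the share (-6.98 without those clusters to -2.01 with lists of equal length; -6.02 to -4.82 leaving out a library), for covered length (-46.3 bp as reported; -25.3 bp among genes not sharing a start, -25.8 bp with lists of equal length and -63.3 bp without those clusters; -57.1 to -35.6 bp leaving out a library) and for summit height (-2.76 to -2.10 leaving out a library), whose counterpart in fold as deposited was -0.022 with groups that overlapped. The change relative to the other chr19 genes, 0.446 points, was -0.616 at the gene's 5′ end only, -1.11 without those clusters and -0.890 to 1.78 leaving out a library. It was highest among genes not sharing a start, at 2.07 points, and was 1.82 points with lists of equal length. The median fold difference, -0.0059, was 0.175 with a window of 500 bp, 0.284 at a −log10 q of 5, 0.0737 with lists of equal length, 0.125 with summits in the window, 0.181 at protein-coding starts, 0.0478 at the gene's 5′ end, 0.156 without those clusters and -0.315 to 0.304 leaving out a library, so no direction is given for it. The 8 lost genes became 4 with lists of equal length and 4 among genes not sharing a start, and 11 to 12 leaving out a library. They became 6 at the gene's 5′ end only and 7 at a −log10 q of 5. The 0 gained genes became 1 with lists of equal length and 0 to 2 leaving out a library. Clusters joined at 500 kb gave the same lowest and highest shares, 4.05% and 85.0%. With the replicate block the values are those above by construction, -5.42 points for the share, and sign changes of 2 pairs cannot give a p below 0.5. The replicate numbers are not tied to shared cultures by the labels; deviations of same-numbered libraries correlated at 0.256 over the 249 genes, which share starts and so are not independent.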
